A study of Mus musculus with 7 samples.

Results

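HDAC1 binding was examined at 10 genes that direct or build cartilage and bone, namely the transcription factor genes Sox9, Sox5, Sox6, Runx2 and Runx3, the joint ligand gene Gdf5, the cartilage matrix genes Col2a1, Acan and Matn1, and the osteoblast gene Sp7. A peak was assigned to a gene when it shared at least 1 bp with the gene body or with the 20 kb on either side of it (mm10 coordinates, GENCODE M21 annotation). By this rule 32 of the 15347 HDAC1 peaks in the list belonged to the 10 genes, and no peak was counted for more than 1 of them. Chromatin came from pooled forelimb and hindlimb buds of wildtype Swiss Webster embryos at E11.5, with 40 to 44 somites, and the labels give 3 litters per sample. There were 4 samples precipitated with an antibody against HDAC1 and 3 input samples of the same tissue without precipitation, and the labels give no treatment. The authors called peaks over the 4 precipitated samples together, and the list used here holds coordinates only, in rank order. The study describes a further table with an enrichment and a false discovery rate for every peak, and neither value was used here. In this list a peak thus has no height, read number or replicate error, and no difference between genes was tested. The study's methods give a minimum read depth for its ChIP libraries in general, and the list gives no depth for any peak. The limb bud was used whole, so a peak cannot be assigned to cartilage precursors or to any other cell type, and no expression was measured with which to check the tissue.

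HDAC1 takes acetyl groups off the lysines of histone tails and works as a subunit of large corepressor complexes, which are recruited to DNA by sequence-specific factors and are also found at the promoters of transcribed genes. In the limb bud, mesenchymal cells condense into the cartilage models of the skeleton under the control of SOX9, and SOX5 and SOX6 act with SOX9 to switch on matrix genes such as Col2a1 and Acan. RUNX2 and RUNX3 then drive the maturation of cartilage cells, RUNX2 and SP7 commit cells to the osteoblast fate, and GDF5 marks the interzones where joints form.

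A set of 4 windows of 300 bp at the centres of peaks is printed here because it shows how widely the peaks at these genes differ in CpG number and rank. Each is read 5′ to 3′ on the strand of the gene from the GRCm38 (mm10) reference, and capitals mark CpG dinucleotides. The Sox9 window comes from the best-ranked of the 32 peaks, the Acan window from the only peak at that gene, the Sp7 window is the whole of the only Sp7 peak away from the start of another gene, and the Gdf5 window comes from the only peak inside the Gdf5 gene.
Sox9, peak ranked 791, chr11:112784525-112784824, plus strand: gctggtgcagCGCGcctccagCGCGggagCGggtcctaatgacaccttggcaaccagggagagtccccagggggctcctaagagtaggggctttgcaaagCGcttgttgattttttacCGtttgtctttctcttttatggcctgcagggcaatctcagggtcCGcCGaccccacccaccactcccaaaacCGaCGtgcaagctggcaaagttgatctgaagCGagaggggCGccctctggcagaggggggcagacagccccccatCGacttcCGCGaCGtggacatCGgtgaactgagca
Acan, peak ranked 13139, chr7:79052825-79053124, plus strand: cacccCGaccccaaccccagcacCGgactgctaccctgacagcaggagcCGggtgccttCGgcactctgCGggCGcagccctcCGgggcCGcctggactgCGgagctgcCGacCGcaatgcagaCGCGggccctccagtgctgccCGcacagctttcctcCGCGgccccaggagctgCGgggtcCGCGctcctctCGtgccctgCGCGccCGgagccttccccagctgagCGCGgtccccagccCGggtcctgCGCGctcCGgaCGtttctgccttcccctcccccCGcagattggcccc
Sp7, peak ranked 5350, chr15:102377100-102377399, minus strand: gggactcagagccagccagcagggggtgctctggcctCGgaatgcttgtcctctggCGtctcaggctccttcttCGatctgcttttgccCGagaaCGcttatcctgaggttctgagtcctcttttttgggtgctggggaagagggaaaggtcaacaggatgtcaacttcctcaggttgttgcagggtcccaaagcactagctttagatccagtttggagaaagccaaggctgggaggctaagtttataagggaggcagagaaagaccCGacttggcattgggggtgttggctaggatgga
Gdf5, peak ranked 10714, chr2:155943375-155943674, minus strand: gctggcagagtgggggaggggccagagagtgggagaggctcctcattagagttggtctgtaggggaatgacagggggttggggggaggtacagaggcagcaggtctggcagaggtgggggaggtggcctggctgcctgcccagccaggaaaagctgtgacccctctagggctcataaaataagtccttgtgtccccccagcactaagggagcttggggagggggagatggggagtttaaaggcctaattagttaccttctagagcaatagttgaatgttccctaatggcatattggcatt

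A further 5 windows of 300 bp are the only windows among the 32 that held the letters ACAATG, the core read by SOX proteins, or TGTGGT, the core read by RUNX proteins, on either strand. Capitals mark these cores and also GGGCGG, the GC box read by SP and KLF proteins, each shown as it falls on the strand printed.
Col2a1, peak ranked 2369, chr15:98002300-98002599, minus strand: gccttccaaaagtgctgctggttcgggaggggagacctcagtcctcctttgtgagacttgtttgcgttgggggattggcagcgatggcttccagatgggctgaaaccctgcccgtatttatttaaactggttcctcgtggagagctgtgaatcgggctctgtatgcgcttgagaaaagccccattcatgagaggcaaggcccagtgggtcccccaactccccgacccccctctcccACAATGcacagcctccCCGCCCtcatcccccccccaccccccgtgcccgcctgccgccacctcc
Sox5, peak ranked 10687, chr6:144782025-144782324, minus strand: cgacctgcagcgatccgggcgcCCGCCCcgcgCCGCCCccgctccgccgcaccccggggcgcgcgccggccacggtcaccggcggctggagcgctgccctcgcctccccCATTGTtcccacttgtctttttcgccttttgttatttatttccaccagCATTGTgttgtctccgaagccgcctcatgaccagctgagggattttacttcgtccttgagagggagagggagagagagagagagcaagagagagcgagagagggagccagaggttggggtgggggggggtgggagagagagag
Sox6, peak ranked 8169, chr7:115624925-115625224, minus strand: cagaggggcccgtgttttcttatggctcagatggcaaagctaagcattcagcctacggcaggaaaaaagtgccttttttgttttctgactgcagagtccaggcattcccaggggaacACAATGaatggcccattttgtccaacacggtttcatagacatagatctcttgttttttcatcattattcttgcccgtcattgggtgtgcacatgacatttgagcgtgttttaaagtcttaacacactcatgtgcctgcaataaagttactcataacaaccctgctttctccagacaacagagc
Runx2, peak ranked 7467, chr17:44601625-44601924, minus strand: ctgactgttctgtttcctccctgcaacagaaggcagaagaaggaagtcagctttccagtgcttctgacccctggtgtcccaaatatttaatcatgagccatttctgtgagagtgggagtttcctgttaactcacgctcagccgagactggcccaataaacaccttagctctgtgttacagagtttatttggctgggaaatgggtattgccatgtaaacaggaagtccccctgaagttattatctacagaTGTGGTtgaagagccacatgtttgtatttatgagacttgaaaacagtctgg
Runx3, peak ranked 13977, chr4:135146850-135147149, plus strand: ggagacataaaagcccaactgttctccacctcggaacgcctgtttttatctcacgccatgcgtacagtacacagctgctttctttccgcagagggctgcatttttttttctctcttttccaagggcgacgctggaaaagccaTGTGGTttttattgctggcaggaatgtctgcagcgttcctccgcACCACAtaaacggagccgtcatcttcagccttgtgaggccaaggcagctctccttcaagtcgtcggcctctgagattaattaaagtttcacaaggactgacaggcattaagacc

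HDAC1 peaks lay in the windows of 9 of the 10 genes, and Matn1 was the gene without any. Over all 21938 protein-coding genes, 59.3% had at least 1 peak in a window made in the same way. A peak lay at a coding start site of the gene itself, from 2 kb upstream to 1 kb downstream, in 6 of the 10 genes (Sox9, Sox6, Runx2, Runx3, Col2a1 and Acan), against 44.1% of 21851 protein-coding genes with such a start site. In 7 of the 10 genes a peak lay within the gene body itself, against 45.1% of genes. At least 3 peaks were held by 6 of the 10, against 16.1% of genes of every length. The long genes Sox5, Sox6 and Runx2 are among these 6, and Gdf5 reached 3 only through peaks at the starts of other genes. With peaks no more than 1000 bp apart merged, Sox9 had 1 and Col2a1 had 2. A long gene has a longer window in which a peak can fall, so the genes were also read by length. Among the genes with bodies under 15 kb, 3 of 4 (Sox9, Gdf5 and Sp7, but not Matn1) had a peak, against 48.7% of such genes. All 3 genes of 15 to 100 kb (Runx3, Col2a1 and Acan) had a peak, against 66.5%, and so did all 3 of 100 kb or more (Sox5, Sox6 and Runx2), against 74.9%. With 3 or 4 genes in a class, these counts stand as descriptions beside their background.

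**Figure D1:**
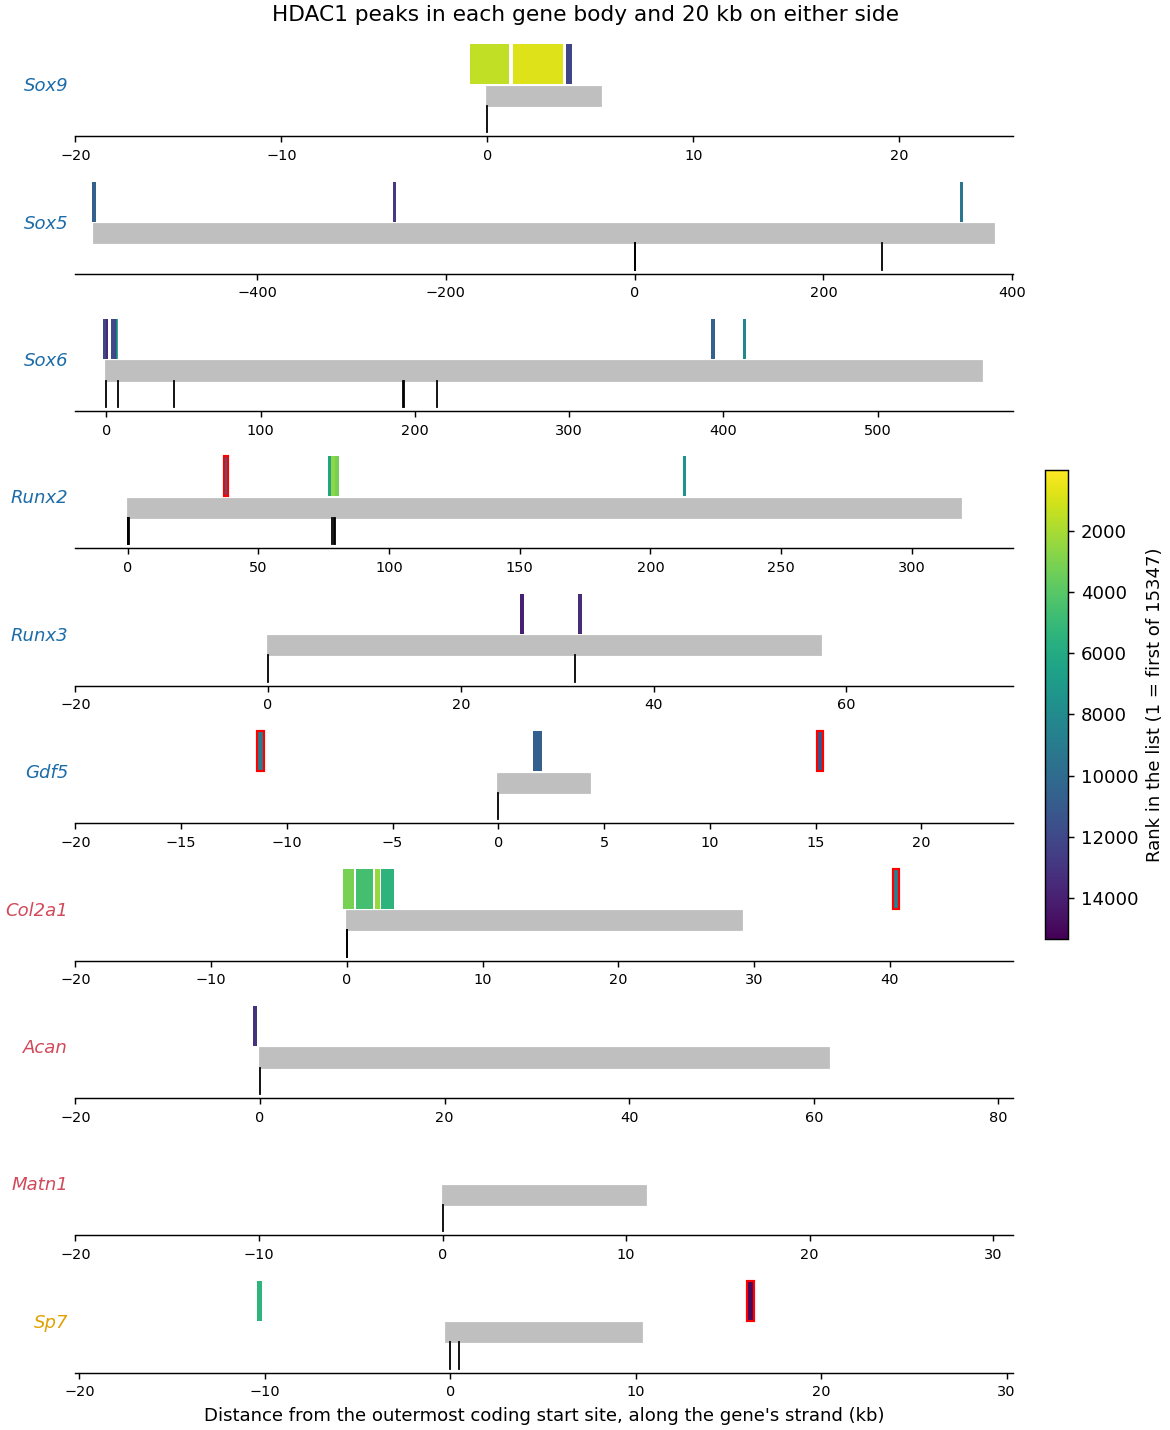
HDAC1 peaks (coloured bars) along each of the 10 genes (grey) and the 20 kb on either side, in kb from the outermost coding start site along the strand of the gene, with coding start sites as black ticks. Colour gives the rank in the list, a red outline marks a peak at the start of another coding gene, and narrow peaks are widened to stay visible. Matn1 has no peak, and Sox9, Runx2 and Col2a1 each have a run of peaks that takes in a start site. All peaks of these runs are among the first 7673 of the list except the last Sox9 peak, ranked 12178.

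Sox9, the master regulator of cartilage formation, carried the best-ranked peak of all 10 genes. The gene is 5.54 kb long (chr11:112782224-112787760, plus strand) and has 3 exons and a single start site. The peak ranked 1490 was 1900 bp long (chr11:112781400-112783299) and covered the start site. It also covered the start of the long noncoding RNA BC006965, which is transcribed the other way, so the list cannot tell those starts apart. The peak ranked 791 was 2450 bp long (chr11:112783450-112785899) and ran from intron 1 into exon 3, and a 300 bp peak ranked 12178 (chr11:112786050-112786349) lay within exon 3, in its 3′ untranslated part. Only 150 bp separated each from the next, and together they formed a stretch of 4950 bp that began ahead of the start site and ended inside the last exon. The 3 peaks covered 4650 bp, a length reached in 1.43% of windows of protein-coding genes, where the median was 404 bp.

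Sox5 and Sox6, whose proteins pair up and assist SOX9 at matrix genes, had peaks of lower rank and different layouts. Sox5 (chr6:143828425-144781977, minus strand, 954 kb) had 3 short peaks far apart. A 150 bp peak ranked 9358 (chr6:143863200-143863349) lay in intron 9 of the longest coding transcript, and a 150 bp peak ranked 12702 (chr6:144463800-144463949) lay 254 kb upstream of the nearest coding start site. The last, 350 bp long and ranked 10687 (chr6:144782000-144782349), ended 23 bp upstream of the outermost start site, which belongs to a noncoding transcript, and its sequence is printed above. No peak lay at any of the 5 coding start sites of Sox5. At 0.302 peaks per 100 kb, the Sox5 window was less dense than the median window of protein-coding genes, at 1.07.

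Sox6 (chr7:115470872-116038796, minus strand, 568 kb) had 8 peaks, the most of the 10 genes and a number reached by 0.711% of protein-coding genes. That share takes no account of the long window, and the density of 1.32 peaks per 100 kb was reached by 46.1% of genes. Merging peaks no more than 1000 bp apart left 4. In a pair of groups at the 5′ end of the gene lay 6 of the 8 peaks. The best ranked, at 5508 (chr7:116031900-116032299, 400 bp), lay 853 bp upstream of the coding start site at 116031047 and covered the start of the antisense RNA Sox6os. Upstream of it followed a 200 bp peak ranked 9134 and a pair of 500 bp peaks ranked 12426 and 11917, and these 4 peaks formed a stretch of 2900 bp. The outermost coding start site, at 116038744, was covered by a 250 bp peak ranked 13534. A 400 bp peak ranked 12201, 956 bp upstream of that site, covered a start site of the neighbouring gene 1110004F10Rik at 116039712, which is annotated on a coding transcript outside the basic set, so this peak may be counted for either gene. The last pair of peaks, of 250 bp and 350 bp at ranks 8169 and 10641, lay in intron 7. The 4 coding start sites further inside the gene had no peak, and the nearest lay 36.8 to 186 kb away. The layout of Sox6 was thus several modest peaks at the 5′ end, where Sox9 had a few long ones and Sox5 had none at a coding start.

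**Figure D2:**
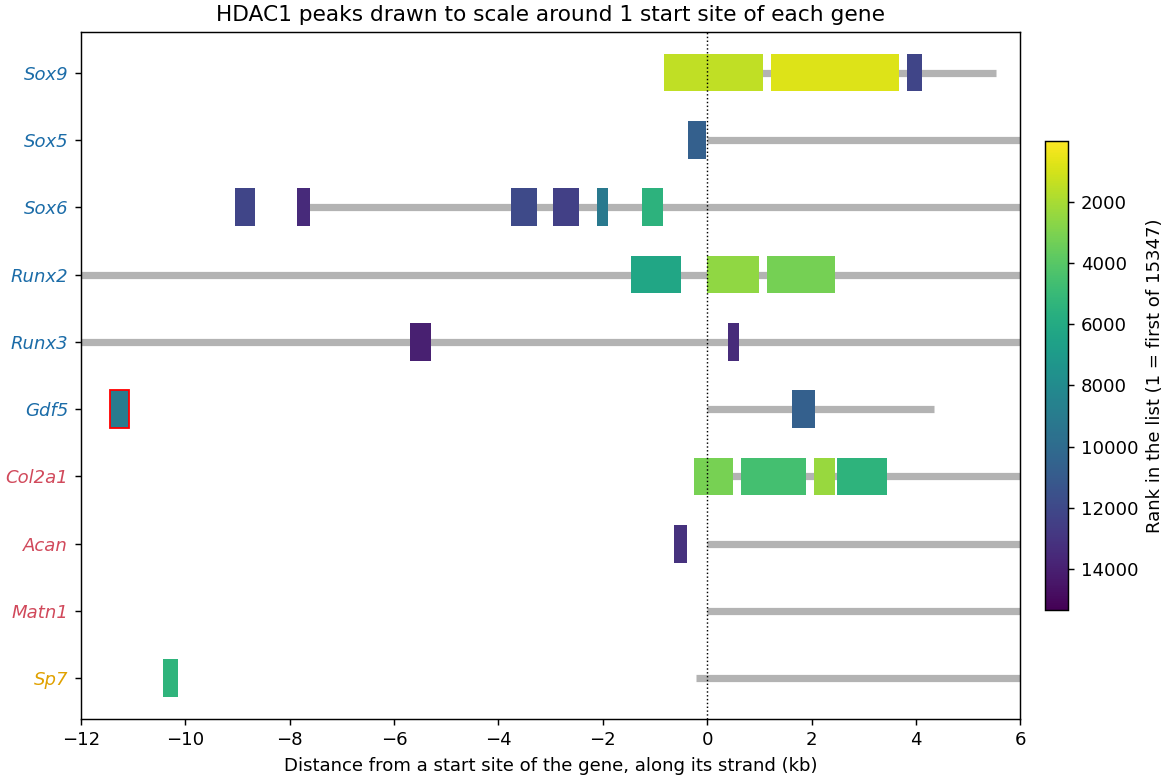
HDAC1 peaks drawn to scale from 12 kb upstream to 6 kb downstream of a start site of each gene (dotted line at 0, gene body in grey, colour as the rank, red outline for a peak at the start of another coding gene). The start shown is the coding start nearest to a peak, except that Sox5 is centred on its outermost, noncoding start and Sox6 on the coding start at 116031047. Stretches of 4950 bp at Sox9, 3900 bp at Runx2 and 3700 bp at Col2a1 stand beside single short peaks at Sox5 and Acan and, at Gdf5, a short peak in intron 1 and another at the start of Cep250.

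Runx2, which is needed both for the late maturation of cartilage and for bone, had 5 peaks, all inside the gene body (chr17:44495987-44814797, minus strand, 319 kb). They were unequally shared between its start sites. At the proximal group of coding starts, a 1000 bp peak ranked 2558 (chr17:44735650-44736649) covered the start sites at 44736648 and 44735710. It was flanked by a 1300 bp peak ranked 3229 on the downstream side (chr17:44734200-44735499) and a 950 bp peak ranked 6274 on the upstream side (chr17:44737150-44738099), which made a stretch of 3900 bp. The antisense RNA Runx2os1 starts under the peak ranked 2558. At the distal group of coding starts, between 44814226 and 44814797, there was no peak within 36.8 kb. The peak nearest to them, 300 bp long and ranked 10456 (chr17:44777150-44777449), covered the start site of Supt3, a gene that overlaps Runx2 and encodes a subunit of a transcriptional coactivator complex. The remaining peak, 350 bp long and ranked 7467 (chr17:44601600-44601949), lay 134 kb downstream of the nearest coding start and holds the Runx2 window printed with a RUNX core.

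Runx3, which acts beside Runx2 in maturing cartilage, had no peak ranked better than 13464, which was the lowest leading rank among the 9 genes with a peak. Its gene body (chr4:135120652-135177990, plus strand, 57.3 kb) held 2 peaks. A 200 bp peak ranked 13464 (chr4:135152900-135153099) lay 404 bp downstream of the proximal coding start, at 135152496, and a 400 bp peak ranked 13977 (chr4:135146800-135147199) lay in intron 1, 5297 bp upstream of the same start. The distal coding start was 26.1 kb from the nearest peak. In both RUNX genes the peaks at an own start were therefore at the proximal and not at the distal coding starts, and ranks 2558 and 13464 show how far apart they stood in the list.

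Gdf5, a ligand of the bone morphogenetic protein family, had 3 peaks in its window but only 1 in the gene (chr2:155941023-155945367, minus strand, 4.34 kb). That peak, 450 bp long and ranked 10714 (chr2:155943300-155943749), lay in intron 1, 1618 bp downstream of the start site and so outside the start-site window. The others were at the starts of the neighbouring genes on either side. A 300 bp peak ranked 11275 lay at the start of Uqcc1, an assembly factor of the mitochondrial respiratory chain, and a 350 bp peak ranked 9052 lay at the start of Cep250, a centrosome protein. Without these, the Gdf5 window held a single peak of low rank.

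Of the 6 peaks at the matrix genes, 5 belonged to Col2a1, which encodes the type II collagen that makes up most cartilage fibre. Col2a1 (chr15:97975602-98004695, minus strand, 29.1 kb, 54 exons) had 4 peaks in a run from the start site through intron 1. The peak ranked 3158 (chr15:98004200-98004949, 750 bp) covered both coding start sites. The next ones inward were ranked 4594 (chr15:98002800-98004049, 1250 bp), 2369 (chr15:98002250-98002649, 400 bp) and 5409 (chr15:98001250-98002199, 950 bp). Gaps of 50 to 150 bp separated them, and the stretch spanned 3700 bp. The remaining peak in the window, ranked 8663, was 40.2 kb from the start site, at the start of the neighbouring gene Tmem106c. Peaks covered 3750 bp of the window, a length reached in 2.75% of protein-coding genes, and the density of 7.24 peaks per 100 kb was reached by 4.49%. Col2a1 and Sox9 thus shared a layout, a start-site peak continued by a run of long and short peaks into the gene. Runx2 also had a run of peaks, at its proximal starts.

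Acan, which encodes the large proteoglycan aggrecan, had a single peak of 250 bp ranked 13139 (chr7:79052850-79053099), 384 bp upstream of its start site (chr7:79053483-79115099, plus strand, 61.6 kb). The peak lay inside the antisense RNA Gm26633, whose own start was 224 bp away. No peak lay in the Acan gene body. Matn1, which encodes the cartilage protein matrilin-1 (chr4:130944385-130955475, plus strand, 11.1 kb), had no peak in its window, and the nearest peak of the list, ranked 3982 (chr4:130861600-130862249), ended 82.1 kb upstream of it. The 3 matrix genes therefore ranged from a 3700 bp stretch to nothing within 20 kb.

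Sp7, the osteoblast transcription factor gene also called osterix (chr15:102356606-102367182, minus strand, 10.6 kb), had no peak at a start site or in the gene body. In its window, a 300 bp peak ranked 5350 (chr15:102377100-102377399) lay 10.1 kb upstream of the nearest coding start, in sequence with no annotated gene. A 350 bp peak ranked 14919 lay beyond the 3′ end, at the start of Aaas, a nuclear pore gene, and of a noncoding RNA transcribed in the other direction. Rank 14919 was the lowest of the 32 peaks.

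Set side by side, all 6 regulators (the SOX and RUNX genes and Gdf5) had a peak in the window, and 3 of the 4 matrix and osteoblast genes did, where the share over all protein-coding genes was 59.3%. With the first 7673 peaks alone these counts were 3 of 6 and 2 of 4, against 43.8% of all protein-coding genes. A peak at an own start site was found in 4 of the 6 and in 2 of the 4, against 44.1% of protein-coding genes with such a start. A peak inside the gene body was found in all 6 and in 1 of the 4, against 45.1% of protein-coding genes. The last share is not matched for length, and the regulators Sox5, Sox6 and Runx2 have bodies of 319 to 954 kb. The median number of peaks per gene was 3 (range 2 to 8) for the regulators and 1.5 (range 0 to 5) for the matrix and osteoblast genes. Per 100 kb of window the medians were 1.72 and 2.47 peaks, and Sox5, Sox6 and Runx2 had the longest windows. These densities include peaks at the starts of other coding genes, 3 of the 24 regulator peaks and 2 of the 8 others. The order of the 2 medians depends on counting them, so no order by density is drawn. The median length covered by peaks was 1975 bp per regulator and 450 bp per matrix or osteoblast gene. The 24 peaks of the regulators had a median rank of 10548 (791 to 13977) and a median length of 350 bp, and the 8 peaks of the other genes had a median rank of 5380 (2369 to 14919) and a median length of 400 bp. Col2a1 gave 5 of the 8 peaks of the matrix and osteoblast genes, and Sox6 gave 8 of the 24 regulator peaks. The medians of peak number, covered length, rank and peak length also include the peaks at the starts of other coding genes.

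By position, 12 of the 32 peaks lay at an own coding start site, 13 elsewhere in the gene body, 2 in the flanks and 5 at the start of another coding gene (Supt3, Uqcc1, Cep250, Tmem106c and Aaas). Among regulator peaks these counts were 9, 11, 1 and 3, and among the other 8 peaks 3, 2, 1 and 2. Some peaks counted in the gene body covered a start of a noncoding transcript of the same gene. They were the Sox6 peaks ranked 12426 and 11917 and the Col2a1 peak ranked 5409. The peaks at the 10 genes were shorter and lower in the list than the list as a whole, with a median length of 375 bp against 450 bp and a median rank of 9246 against 7674. From the top of the list downward, 6 lay at ranks 1 to 3836, 6 at 3837 to 7673, 10 at 7674 to 11510 and 10 at 11511 to 15347. The best of these runs held peaks of Sox9, Runx2 and Col2a1 alone. Peaks of 1000 bp or more numbered 5 (15.6%, against 17.6% of all peaks), and they were 2 at Sox9, 2 at Runx2 and 1 at Col2a1. As to the start sites themselves, 1464 protein-coding genes had a start-site peak ranked as well as that of Sox9. The same number was 2491 for Runx2, 3059 for Col2a1 and 5082 for Sox6, and it was 8980 for Acan and 9063 for Runx3, near the end of the 9630 genes with such a peak.

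**Figure D3:**
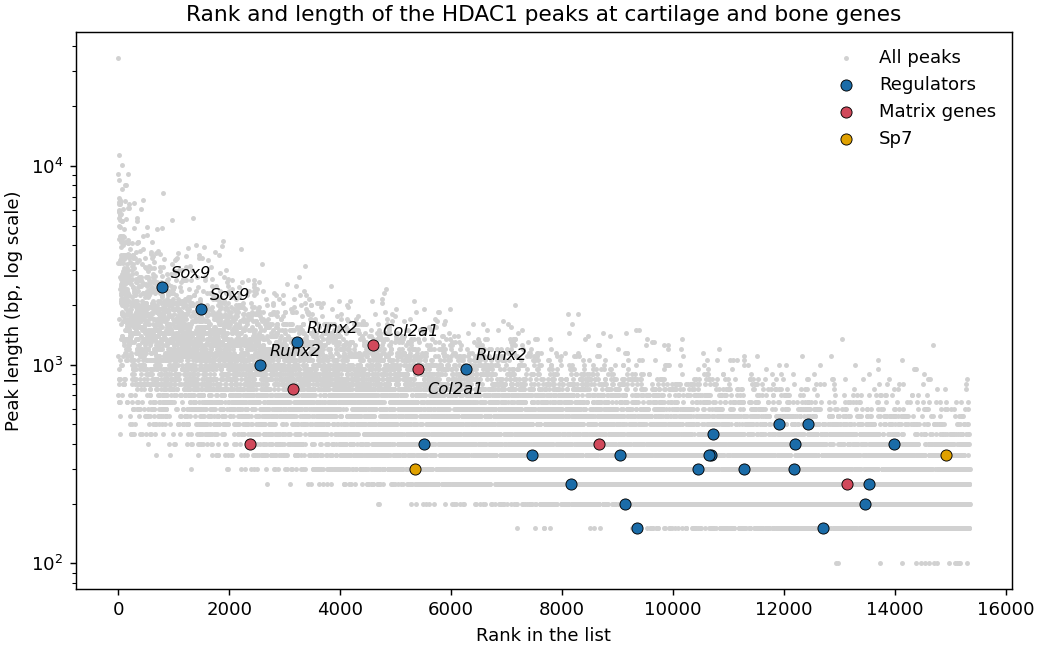
Length (bp, log scale) against rank in the list for all 15347 HDAC1 peaks (grey) and for the 32 peaks at the 10 genes (blue for regulators, red for matrix genes, orange for Sp7). The 7 longest are named, and they belong to Sox9, Runx2 and Col2a1, at ranks from 791 to 6274, while the peaks of the other genes are 500 bp or shorter.

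The median base composition of the peaks differed with their position. In the central 300 bp, the median GC content was 60.1% and the median number of CpG dinucleotides 13.5 over the 32 peaks, against 64.3% and 23.0 over all peaks. Peaks at an own start site (n = 12) had medians of 62.8% and 22.0, peaks at the start of another gene (n = 5) 69.7% and 31.0, and peaks in the gene body (n = 13) 50.7% and 5. Among peaks at an own start, the CpG-dense end of the range was formed by the Runx2 peak ranked 2558, with 74.3% GC and 43 CpG, the Runx3 peak ranked 13464, with 71.3% and 34, and the Acan peak printed above, with 74.7% and 31. Peaks at the starts of neighbouring genes had 42 CpG at Tmem106c, 34 at Aaas, 31 at Cep250, 28 at Supt3 and 23 at Uqcc1. The printed Sox9 window, which lies inside the gene and not at its start, had 60.7% GC and 18 CpG. At the other end, the printed Gdf5 window had 56.3% GC and no CpG, and the Sox9 peak in exon 3 had 32.3% GC and no CpG. A peak without any CpG in this window was rare in the list, at 0.795% of all peaks. The Sp7 window upstream of the gene had 6 CpG. Peaks at an own coding start ranged from 4 CpG, at the Sox6 peak ranked 9134, to 43, and peaks in the gene body from 0 to 24. The value of 24 was at the Sox6 peak ranked 12426, which covered a noncoding start of Sox6, and the next highest was 18, at the Sox9 peak ranked 791. The ranges thus overlapped, although the medians differed.

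**Figure D4:**
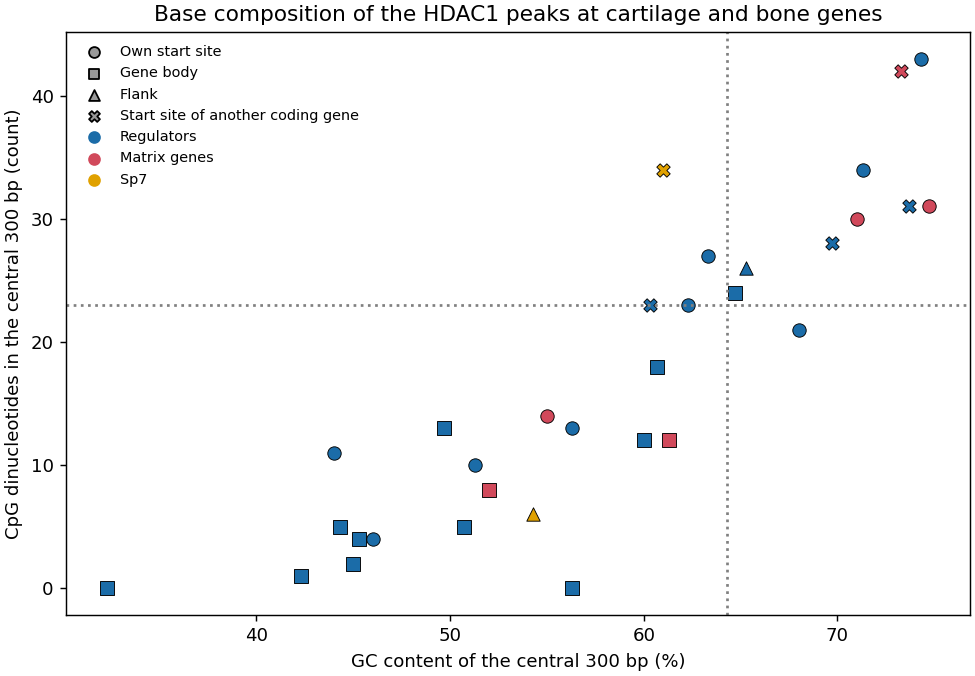
GC content (%) against the number of CpG dinucleotides in the central 300 bp of each of the 32 HDAC1 peaks, by position (symbol) and gene class (colour), with dotted lines at the medians of all 15347 peaks (64.3% and 23.0). Peaks at an own start site range from 4 to 43 CpG, and most gene-body peaks lie below both lines.

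Matches to short factor cores were counted in the same 300 bp windows on both strands. The SOX core ACAATG was found in 3 of 32 windows (9.38%), 1 each at Col2a1, Sox5 and Sox6, against 6.77% of all peaks and 12.6% of 32851 RefSeq promoters of the same length. The Col2a1 match was in the intron 1 peak ranked 2369, and the Sox5 window held the core at 2 places. The RUNX core TGTGGT was found in 2 windows (6.25%), in Runx2 and in Runx3, against 11.2% of all peaks and 16.8% of promoters, and the Runx3 window held it at 2 places on opposite strands. The GLI core GACCACCCA was in none of the 32 windows, and in 0.326% of all peaks and 0.253% of promoters. The GC box GGGCGG was in 9 windows (28.1%), against 49.8% of all peaks and 35.7% of promoters. These cores do not overlap one another in the windows printed, and a match describes letters and not a bound site.

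RefSeq promoters (GRCm38.p6, 250 bases before to 50 after a start) were matched by symbol for 6 of the 10 genes, Sox5, Sox6, Runx2, Runx3, Acan and Matn1, with 12 promoters in all. Of all 32851 promoters, 25.1% overlapped an HDAC1 peak, and those had a median of 65.3% GC and 26.0 CpG, while the rest had 49.7% and 4. Of the 12 promoters, 2 overlapped a peak, the outermost of 6 Sox6 promoters, by 205 bp, and that of Acan, by 124 bp. The proximal Runx3 promoter, with 77.3% GC and 45 CpG, had a peak 306 bp away, and the Sox6 promoter with 63.3% GC and 13 CpG had a peak 603 bp away. The other 8 promoters were 26.1 kb or further from a peak, and they included that of Matn1, with 61.3% GC and 6 CpG, and the distal Runx2 promoter, with 45.3% GC and 2 CpG. The single Acan peak thus overlapped part of the CpG-rich RefSeq promoter of Acan. That promoter ends at 79053275, ahead of the GENCODE start at 79053483, so the 2 annotations place the start differently.

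The layout was also read in 43 other genes of the same pathways, taken from lists set by role. Among 6 other regulators of cartilage, 5 had a peak in the window and all 5 had it at their own start site, against 59.3% and 44.1% of protein-coding genes. The best ranked were Pth1r, the receptor of parathyroid hormone-related protein (rank 2359), Nkx3-2, a repressor of cartilage maturation (3045), and Trps1, a GATA-type repressor (4878), and Sox8 had none. Among 14 other cartilage matrix genes, 5 had a peak in the window (35.7%) and 1 at its own start site (7.14%), which was Hapln1, the link protein that ties aggrecan to hyaluronan (rank 1442, 350 bp). Of the other 4, named after their values were seen, Col9a1 had a peak inside the gene, while the peaks of Col9a3, Col11a2 and Chad were all at the starts of other genes. Among 14 other osteoblast genes, 9 had a window peak (64.3%) and 8 a start-site peak (57.1%). Among the best ranked were Cbfb, the partner subunit of RUNX proteins (rank 185), and Runx1 (1718), both of them regulators. The osteoblast genes with no peak were Phex and the genes of the bone matrix proteins Col1a1, Ibsp, Bglap and Dmp1. Of the osteoblast genes with a peak, 2 more are named after their values were seen. The bone collagen gene Col1a2 had 5 peaks, 1 of them at its own start site (rank 10013), and Alpl, which encodes an enzyme of mineralisation, had 2 start-site peaks (best rank 9987). Among 9 joint genes, 8 had a window peak and 7 a start-site peak, with Erg, an ETS factor of joint cartilage (860), the ligand Wnt4 (1611) and Nog, an antagonist of bone morphogenetic proteins (2510), ranked best, and Prg4, which encodes the lubricant of the joint surface, had none. Over the 43 genes together, 62.8% had a window peak and 48.8% a start-site peak, close to the shares over all protein-coding genes.

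**Figure D5:**
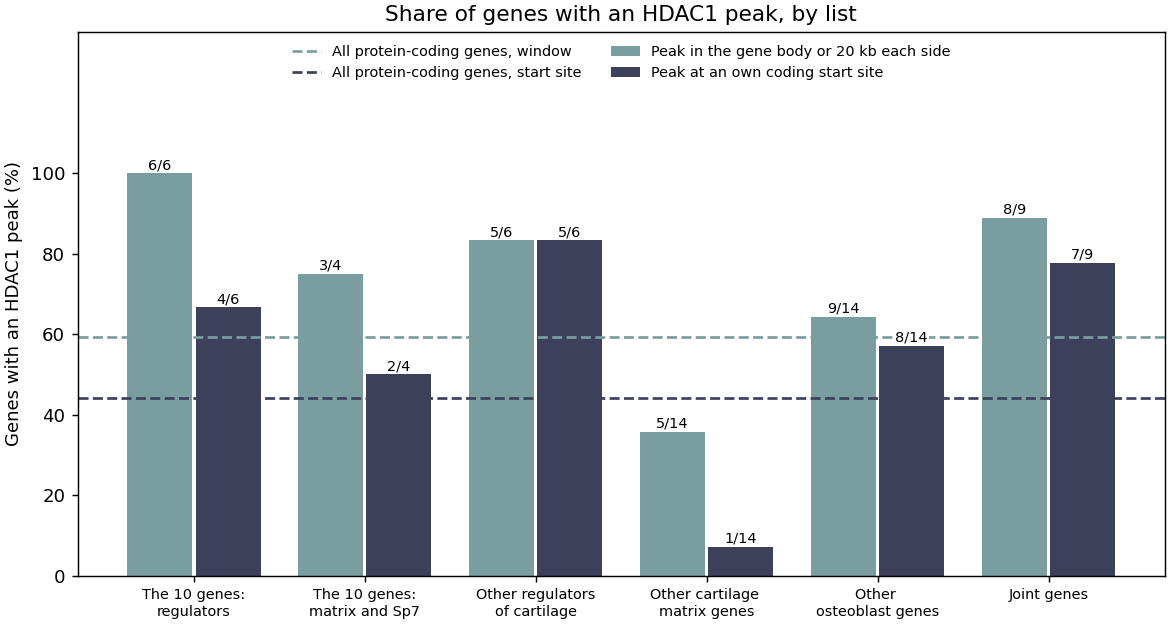
Percent of genes with an HDAC1 peak in the gene body or 20 kb on either side (light bars) and at an own coding start site (dark bars) for the 10 genes and for 4 other lists, with the number of genes above each bar and the shares over all protein-coding genes as dashed lines (59.3% and 44.1%). Other cartilage matrix genes are lowest in both bars, with 5 of 14 in the window and 1 of 14 at a start site. At the start site, other regulators of cartilage (5 of 6) and joint genes (7 of 9) are highest.

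Sox9 lies in a wide stretch without other coding genes that is known for distant enhancers, so peaks were also read beyond the 20 kb. Between Kcnj2 and Slc39a11, the coding genes on either side of Sox9, 10 further peaks lay outside the window, 5 of them 954 to 1482 kb upstream of the start site and 5 of them 88.0 to 419 kb downstream. They ranked from 7945 to 14080, lower than both long peaks at Sox9, and none was at a coding start site. Sox5 had 3 such peaks, at ranks 8500 to 11228 and 679 to 735 kb from its outermost coding start, and Runx2 had 3, at ranks 11976 to 15269 and 428 to 504 kb upstream. Matn1, with nothing in its window, had 4 peaks between 171 and 540 kb downstream at ranks 2774 to 12338, and Sp7 had 1, 32.8 kb upstream at rank 12228. Sox6, Runx3, Gdf5, Col2a1 and Acan had none before the next coding gene. The list does not say which gene a distant peak acts on.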

How the data were processed

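HDAC1 ChIP and input libraries were prepared by the authors from E11.5 limb buds. Per the submitters' processing notes, Bowtie2 2.2.5 and mm10 were used, and per the study's methods peaks were called with CisGenome. The methods describe a limma comparison of peaks with input for wildtype and mutant limb buds and do not state it for HDAC1. The authors deposited a single table of peak positions. Its columns hold coordinates and neither counts nor signal, and the row order was read as the rank, which the study's description of its peak table gives. Intervals were taken as 1-based with both ends included, and all starts were multiples of 50.

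Peaks were intersected with gene records of GENCODE M21. Coding start sites were those of protein-coding transcripts in the basic set. Sequence was read from GRCm38.p6. Since the list is pooled, no replicate could be compared and no test was run. Overlap calls were tested on simulated data, and 1000 of 1000 windows matched a base-by-base count. Alternatives were the first 7673 peaks, flanks of 0, 5 and 100 kb, 50% overlap, merging within 1 kb, other start-site windows, and leaving out peaks at starts of other genes. All 10 genes were named with every peak, and from each pathway list the 3 genes with the best-ranked start-site peaks and, where 5 or fewer, those without a peak. A gene that this rule would name is not reported here. The genes, lists and motifs were chosen with earlier results of these data known. Python 3.11.15, numpy 2.4.6, pysam 0.24.0 and matplotlib 3.10.9 were used.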

Additional observations from a re-analysis of the deposited data

How the results depend on the processing

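The counts of genes with a peak changed with how far down the list peaks were taken and with the flank. With the first 7673 peaks, 5 of the 10 genes had a peak, through 12 peaks, 3 of the 6 regulators and 2 of the 4 matrix and osteoblast genes did, and the share over all protein-coding genes was 43.8%. Sox5, Runx3, Gdf5 and Acan then had none. Merging peaks no more than 1000 bp apart left 21 of the 32 peaks and changed no count of genes. With the gene body only, 1 matrix or osteoblast gene (Col2a1) had a peak, against 45.1% of all protein-coding genes. That share was 50.5% with 5 kb on each side, 77.1% with 100 kb, and 49.2% without peaks at the starts of other genes. With 100 kb all 10 genes had a peak in the window, 1 for Matn1 and 10 for Sp7. The Matn1 peak, 82.1 kb upstream, lay past the near end of Laptm5, a coding gene 8.24 kb from Matn1. Of the peaks added for Sp7, only 1 lay before the next coding gene. Own-start counts were 6 in the main setting, 7 with a window of 5 kb on both sides or with all annotated transcripts, and 4 with the first 7673 peaks. The share over all protein-coding genes, 44.1% in the main setting, was not taken in these alternatives. Their counts thus have no background. Of 40 alternative values for the groups, 30 stayed within 1.5 times the reported count or within its interval. Some of the 40 could not fall, since merging cannot take away a gene's only peak and a wider flank cannot lower a count. For single genes, 18 of 50 alternative values moved further than 1.5 times. No paired analysis was possible because the authors pooled the samples into 1 list, and no replicate could be left out. The peak threshold of the authors sets what can be seen, so a gene without a peak was not shown to lack HDAC1.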
